A study of Mus musculus with 9 samples.

Results

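PPARγ binding was measured by chromatin immunoprecipitation (ChIP)-sequencing in interscapular brown adipose tissue (iBAT), and the binding sites described here are the peaks whose read counts followed a 24 h rhythm with a phase near the middle of the light phase. The mice were male C57BL/6J, an inbred laboratory strain, 10 weeks old, chow-fed, not fasted, without any transgene or drug, and housed below thermoneutrality. Collections were 3 h apart, the first at ZT0 (Zeitgeber time), which is light onset, and the last at ZT21, with the dark phase, in which mice are active, starting at ZT12. Each time point is 1 library from tissue pooled, according to the labels, from 8 mice (the methods also give 4 per time point), so neither mice nor preparations were replicated and no test between time points was possible. All shares below are therefore descriptions of these 8 libraries.

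The midday peaks were chosen by their read counts. A peak was included if its mean raw count was at least 100 reads, if a 24 h cosine fitted to log2 normalised read counts had an amplitude of at least 0.3 and an R2 of at least 0.7, and if the fitted phase lay from 3 to below 9 h after light onset. Normalised read counts are the deposited counts divided by a size factor per library, the median over peaks of each count relative to the peak's geometric mean. The amplitude is the distance from the fitted mean to the fitted maximum on the log2 scale. Of 66066 peaks, 52193 had the required reads, 5283 of these met the limits with any phase (10.1%), and 1872 had a midday phase (3.59%). The rule itself used the counts of all 8 libraries, so the shape, size and timing of the rhythm are given as a description and carry no test.

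PPARγ is the nuclear receptor that drives fat cell formation and lipid storage, and it binds DNA together with the retinoid X receptor at DR1 elements, a pair of AGGTCA sequences separated by a single base. In brown fat it keeps enhancers of lipid handling genes and of thermogenic genes such as Ucp1 active. The circadian clock runs in the same nuclei, where BMAL1 and CLOCK bind E-boxes (CACGTG) and switch on their own repressors, among them the Cry genes and Nr1d1. Reads over a peak count fragments held by the antibody, whether PPARγ bound the DNA itself or through other proteins.

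To show what the midday sites look like, the best DR1 match is given for 9 peaks named below for their amplitude, their strength or their gene list that held a match with at most 1 mismatch (a further such peak, near Ppargc1b, is not printed), with 8 flanking bases on each side. The element may lie anywhere in the peak. All sequences are from GRCm38, 5′ to 3′ on the strand of the element, and capitals mark the 13 bases of the element AGGTCANAGGTCA.
Adam22 intron 7 (chr5:8157678-8157706, + strand): tcacgtagAGGTCAGAGGACAacttagag
A630001O12Rik (chr8:126895610-126895638, + strand): atcaaaagAGGTAAAAGGTCAgagttggc
Gm15441 (chr3:96577487-96577515, + strand): agaagtaaAGGTCAAGGGTCAaggcggtc
Phospho1 (chr11:95827251-95827279, - strand): agagttagAGGTGATAGGTCAgagggtgc
A530013C23Rik (chr2:167692062-167692090, + strand): gcaggagtAGGTCAAAGGTCAaaggcttt
Noct (chr3:51202841-51202869, - strand): gaagcacaAGGTCAGAGGCCAgctgccca
Col4a1 (chr8:11332634-11332662, + strand): gcatattgAGGTCAGAGGGCAatgtccaa
Gpd1 (chr15:99716563-99716591, - strand): gggaaggaAGGTCAAAGGCCActggtgac
Dgat2 (chr7:99161676-99161704, + strand): ctgcagggAGGGCAAAGGTCActgccgct
The element at A530013C23Rik had 0 mismatches, and each of the others had 1.

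An E-box in the central 400 bases was found in 8 of the same named peaks, and these are shown because E-boxes were more frequent among the midday peaks of largest amplitude (below). They were chosen for printing after the values were seen. The E-box is in capitals, with 8 flanking bases on each side, on the + strand.
Adam22 intron 7, first (chr5:8157641-8157662): aggccaaaCACGTGctgggaca
Adam22 intron 7, second (chr5:8157657-8157678): gggacacaCACGTGtcacacct
Gpr6, first (chr10:41037859-41037880): gctgggtcCACGTGagcctttt
Gpr6, second (chr10:41037875-41037896): ccttttggCACGTGactgcatg
Lpl upstream (chr8:68852800-68852821): aaagatctCACGTGttgtcata
A630001O12Rik (chr8:126895419-126895440): aagctgtgCACGTGaggacgag
Gm5907 (chr8:13996997-13997018): gatggagaCACGTGcagaggtc
Txnip (chr3:96559615-96559636): tttgagaaCACGTGttcccgaa
Cry2 (chr2:92423332-92423353): ctggtgtcCACGTGgagccgcc
Hadh (chr3:131246856-131246877): agacacatCACGTGggcataag
In the midday peak of largest amplitude, in Adam22, a pair of E-boxes and a DR1 element lay side by side. The central 200 bases of the 3 peaks of largest amplitude are given on the + strand, with E-boxes, single AGGTCA elements and DR1 elements of at most 2 mismatches in capitals.
Adam22 intron 7 (chr5:8157653-8157852): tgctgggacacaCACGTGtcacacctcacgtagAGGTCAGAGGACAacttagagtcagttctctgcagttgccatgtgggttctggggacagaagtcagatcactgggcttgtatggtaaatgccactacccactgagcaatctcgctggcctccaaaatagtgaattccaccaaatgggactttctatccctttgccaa
Gpr6 (chr10:41037824-41038023): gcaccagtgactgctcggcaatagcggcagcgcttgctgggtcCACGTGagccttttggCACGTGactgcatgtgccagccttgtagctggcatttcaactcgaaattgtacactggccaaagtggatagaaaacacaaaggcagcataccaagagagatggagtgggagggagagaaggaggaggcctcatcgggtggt
Lpl upstream (chr8:68852713-68852912): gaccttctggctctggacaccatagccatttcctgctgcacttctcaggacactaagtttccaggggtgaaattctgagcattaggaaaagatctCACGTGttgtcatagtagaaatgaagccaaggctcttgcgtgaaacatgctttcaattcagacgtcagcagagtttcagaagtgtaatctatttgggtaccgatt

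The libraries held 29572225 (ZT18) to 34264812 (ZT6) reads in peaks. At 100 reads, counting error alone gives the fitted amplitude a standard error of 0.072, and at 296 reads, the median of the midday peaks, of 0.042. Intervals on single counts given below (Wilson, 95%) cover counting error only. Peaks lay at 6 of 7 brown adipocyte marker genes and at 6 of 6 general adipocyte marker genes, whereas 3 of 7 skeletal muscle markers and 1 of 6 macrophage markers had a peak. Of 6 endothelial markers 5 had a peak, and these are described further below.

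The phases of the 5283 peaks that met the limits on count, amplitude and R2 gathered around midday and around the early dark phase. The fullest hour of the day was 5 to below 6 h, with 559 peaks. Among the midday peaks the median phase was 5.58 h (quartiles 4.72 and 6.56 h), and the standard error of a single phase from the scatter around the cosine was 0.83 h at the median. The other phases were less common, with 1516 peaks at dusk (phase from 9 to below 15 h, 2.90%), 1265 at midnight (from 15 to below 21 h, 2.42%) and 630 at dawn (1.21%).

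**Figure D1:**
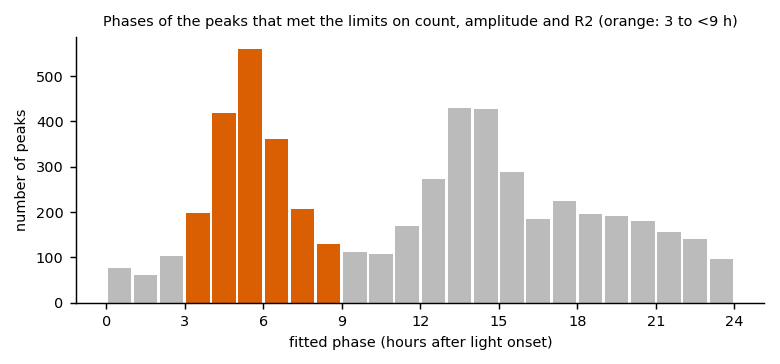
Number of peaks per hour of fitted phase (x axis, hours after light onset) among the 5283 peaks that met the limits on count, amplitude and R2. Orange bars are the 1872 peaks with a phase from 3 to below 9 h, and the highest bar, 559 peaks, lies at 5 to below 6 h.

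Relative to its own mean over the 8 libraries, the median midday peak stood 31.7% above the mean at ZT6, 15.5% above at ZT3 and 14.2% above at ZT9. Its deviation from the mean was -3.05% at ZT0 and -0.19% at ZT12. In the dark phase the deviation was -27.1% at ZT15, -24.0% at ZT18 and -13.1% at ZT21, so that the low point of the median came early in the night. The highest library was ZT6 for 1293 peaks (69.1%), ZT3 for 263, ZT9 for 232, ZT12 for 49 and ZT0 for 35. The lowest was ZT15 for 1008 peaks (53.8%), ZT18 for 674 (36.0%) and ZT21 for 109. ZT6 and ZT15 were also the most extreme libraries in general, since each was the highest library of more peaks than any other, 17.9% of all peaks with sufficient reads for ZT6 and 18.2% for ZT15. As there was 1 pool at each time point, what belongs to the time and what belongs to the pool cannot be told apart. Without ZT6, 1523 peaks met the rule, of which 1199 were among the 1872.

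**Figure D2:**
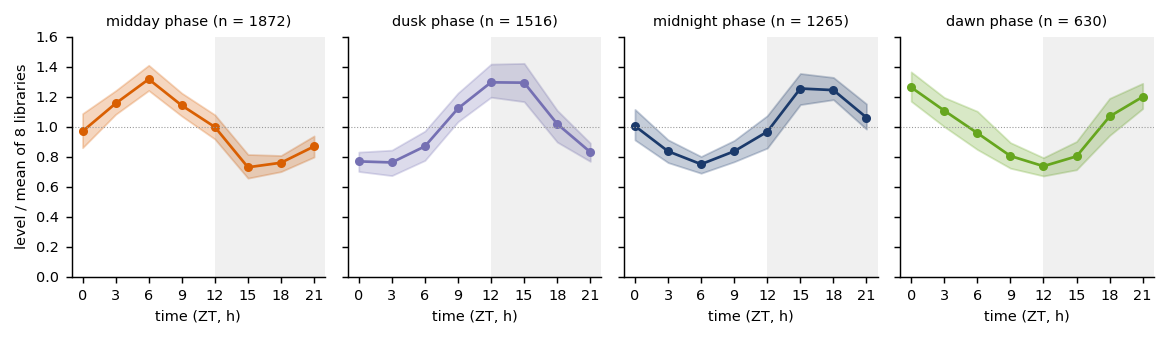
Level of each peak relative to its mean over the 8 libraries (y axis) by time of collection (x axis, ZT in hours) for the 4 phase groups. Points are medians over peaks, bands the quartiles, and grey the dark phase. The 1872 midday peaks deviate from the mean by 31.7% at ZT6 and by -27.1% at ZT15.

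Amplitudes were mostly moderate. The median amplitude was 0.40 (quartiles 0.34 and 0.48), and the median ratio of the highest to the lowest library was 1.95. An amplitude of at least 0.5, a 2-fold fitted range, was reached by 399 of the 1872 peaks (21.3%), at least 0.6 by 148, at least 0.8 by 21 and at least 1.0 by 3. The limits fell within a continuum. A peak near Srl had an amplitude of 0.30013 and was included, while a peak near Gcnt1 with 0.299998 was not. In the same way, a peak near Etl4 with a phase of 3.03 h was in and a peak near Pnrc1 with 2.99 h was out, a peak near Serping1 with 8.96 h was in and a peak near Ostm1 with 9.01 h was out. For R2 the nearest peaks were at Prickle2 (0.70025, in) and Reg4 (0.69983, out), and for the mean raw count at Mdfic (100 reads, in) and Dnajb6 (99.875 reads, out).

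The largest amplitude was found in intron 7 of Adam22, which encodes a membrane protein of the ADAM family (chr5:8157405-8158101, 101211 bp from the start of Sri). Its normalised read counts from ZT0 to ZT21 were, in order, 124, 347, 410, 240, 109, 87, 46 and 76. All 3 collections from ZT3 to ZT9 lay above all others, and the ratio of ZT6 to ZT18 was 9.00. The 95% interval was 373 to 451 at ZT6 and 34.0 to 61.2 at ZT18. The fitted amplitude was 1.44 ± 0.15 (SE of the fit) with a phase of 5.72 ± 0.39 h. This peak also met the rule under each normalization and without any of the libraries in turn.

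The site at the 3′ end of Nr1d1 (chr11:98766520-98769787, centred on the 3′ UTR in exon 8, a stretch that the opposite-strand gene Thra overlaps) had the highest mean count, 804 reads, of the 10 peaks of largest amplitude. It held 569, 1144, 1291, 1269, 815, 533, 391 and 418 reads from ZT0 to ZT21. Its amplitude was 0.93 ± 0.05 with a phase of 6.90 ± 0.22 h, the smallest SE of the 10. The other 8 were intergenic peaks near A630001O12Rik (amplitude 1.00, mean 711 reads), Gpr6 (1.03), Llph (1.00), 1700112H15Rik (0.92), Lpl (1.02) and Myo5b (0.88), and peaks in the first introns of Gm5907 (1.00) and of Sgms2 (0.92), which encodes sphingomyelin synthase 2. The Gpr6 peak ranged from 222 reads at ZT6 to 37 at ZT18. Of these 10, the peaks near Lpl, Gpr6, Llph and Myo5b did not meet the rule without ZT6.

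The midday set included many strong binding sites but was not stronger at the median, with 295 normalised reads against 313 for all peaks. Of the 10% of peaks with the highest mean counts, 258 were midday peaks (4.94%), compared with 3.59% of all peaks and with 6 peaks at midnight phase (0.115%). Of the 10% with the lowest mean counts, 210 were midday peaks (4.02%). The strongest midday peak lay near Gm15441 and Txnip, whose product restrains glucose uptake (chr3:96571359-96578220, mean 13555 normalised reads). It held 12672, 14935, 17846, 15037, 14484, 10824, 10458 and 12186 reads from ZT0 to ZT21, with an amplitude of 0.33 ± 0.05. A peak over the start of Txnip itself (chr3:96554352-96565271) ranged from 13050 reads at ZT6 to 6991 at ZT18. Others of the 8 strongest were near Mirlet7b, B230206L02Rik, Slc7a10, Phospho1 (a phosphatase for phosphocholine, intron 2) and A530013C23Rik (intron 1), and the peak around the start of Ucp1.

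Whether the strongest peaks met the rule depended on the normalization. The strongest 10% of peaks took 48.05% of all reads at ZT6 and 44.2% at ZT15, so that strong peaks as a group held a larger share at ZT6. When this trend with strength was removed by cyclic loess normalization, 61 of the strongest 10% had a midday phase (1.17%) and 31 a midnight phase, and none of the 8 strongest peaks met the rule. The total hardly moved, with 1847 midday peaks under loess, of which 1598 were among the 1872. For strong sites, a rhythm of single peaks and a shift of a library shared by all strong peaks cannot be told apart.

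**Figure D3:**
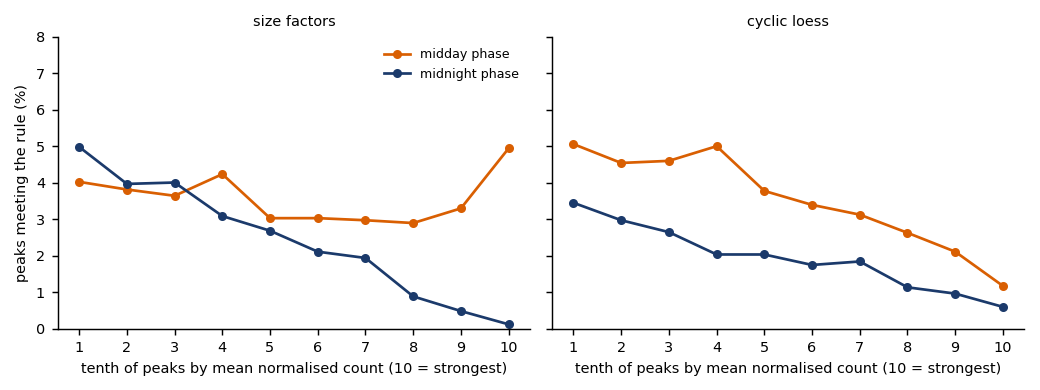
Share of peaks (y axis, %) that met the rule with a midday or a midnight phase in each of 10 equal groups of the 52193 peaks ordered by mean normalised count (x axis, 10 is strongest), with size factors on the left and cyclic loess on the right. In group 10 the midday share is 4.94% on the left and 1.17% on the right.

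Midday peaks lay far from start sites more often than peaks in general. Within 1 kb of a RefSeq start site were 98 of 1872 midday peaks (5.24%), compared with 19.3% of all peaks. The share was 9.33% at midnight, 4.13% at dawn and 2.77% at dusk, so a low share was not particular to midday. Among peaks with 250 to 500 reads the shares were 3.56% of midday peaks and 23.9% of all. The median distance was 23012 bp, against 15570 bp for all peaks, 22521 bp at midnight, 24741 bp at dusk and 31832 bp at dawn. By the peak centre, 941 midday peaks were intergenic (50.3%, all peaks 40.0%), 824 intronic (44.0%) and 107 exonic. Median width was 897.5 bp (all peaks 974 bp), and median GC content of the central 400 bases 49.2%, close to 48.8% for all. The peaks were distributed over all chromosomes, from 1.69% of the peaks on X to 4.58% of those on chromosome 17, and 1398 genes were the nearest to at least 1 of them.

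DR1 elements with mismatches allowed were more frequent in midday peaks than in the other sets. With up to 2 mismatches among the 12 fixed bases, searched on both strands of the central 400 bases, 334 midday peaks held a DR1 (17.8%), compared with 10.7% of all 52187 peaks on chromosomes, 13.0% at dawn, 10.3% at midnight and 9.50% at dusk. Midday peaks also had the higher share among peaks more than 5 kb from a start site (midday 17.9%, all 12.2%) and for peaks of 250 to 500 reads (19.3% and 10.4%). A DR1 without mismatches was rare and not more frequent, in 4 midday peaks (0.21%) and in 0.23% of all peaks. Single AGGTCA elements, which a DR1 without mismatches contains, were found in 42.4% of midday peaks, 41.1% of dawn peaks and 31.1% of all. Among peaks of 250 to 500 reads the share was 45.3% at midday and 49.7% at dawn. Because many peaks are wide and the files give no summit, the centre need not be the point of binding, and 33.3% of midday peaks held a DR1 anywhere within the peak (all peaks 25.3%).

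E-boxes were more frequent in the midday peaks of largest amplitude. CACGTG was present in the central 400 bases of 195 midday peaks (10.4%), compared with 7.38% of all peaks, 5.80% at dusk, 5.40% at dawn and 4.51% at midnight. With the midday peaks divided by amplitude into 3 sets of 624, the share was 9.13% in the lowest set, 8.17% in the middle set and 13.9% in the highest, so that it did not go up steadily. Of the midday peaks with an amplitude of at least 0.5, 63 of 399 held an E-box (15.8%), of those with at least 0.6, 32 of 148 (21.6%), and of those with at least 0.8, 9 of 21 (42.9%). At least 2 E-boxes, as in Adam22 and near Gpr6, occurred in 31 midday peaks (1.66%) and in 0.496% of all peaks. In the other phase groups the share at an amplitude of at least 0.6 was 4.94% at dusk, 7.02% at midnight and 6.94% at dawn, and at 0.8 it was 27.3% at midnight, which is 3 of 11 peaks. The DR1 share was 17.8% of all midday peaks, 16.5% of those with an amplitude of at least 0.5, 20.3% of those with at least 0.6 and 23.8% of those with at least 0.8 (5 of 21). Both elements were held by 36 midday peaks, an E-box alone by 159 and a DR1 alone by 298, which leaves 1379 with neither in this window.

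**Figure D4:**
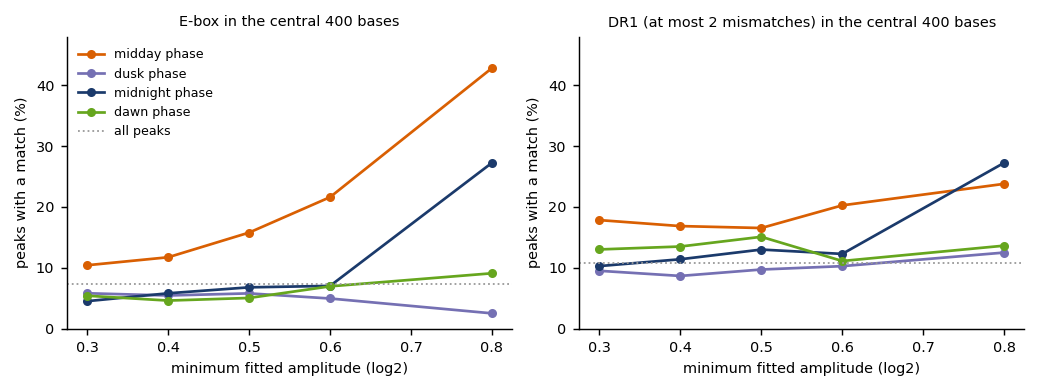
Share of peaks (y axis, %) with an E-box (left) or a DR1 element (right) in the central 400 bases, for peaks of each phase group with at least the fitted amplitude on the x axis. Each point includes those to its right, and the points at 0.8 rest on 11 to 80 peaks. The E-box share of midday peaks goes from 10.4% to 42.9%, and the dotted line is the share of all peaks (7.38% and 10.7%).

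Other motifs were present at other levels in midday peaks. The D-box TTANGTAA was in 4.2% of midday peaks, 5.1% of all peaks and 26.4% of dusk peaks, and the RORE AANTAGGTCA, which contains AGGTCA, was in 0.75% of midday peaks and 7.0% of dawn peaks. The C/EBP motif TTGCNNAA was in 19.4% of midday and 22.8% of all peaks, the ETS motif CCGGAAG in 2.7% and 4.9%, the glucocorticoid receptor motif ACANNNTGT in 13.9% and 11.6%, and the cAMP response element TGACGTCA in 1.07% and 0.85% (1.25% of peaks with an amplitude below 0.1). Among peaks more than 5 kb from a start site, the ETS motif was in 2.45% of midday and 1.997% of all peaks. Its lower share among midday peaks was therefore not seen there. The glucocorticoid receptor motif was in 13.93% and 13.31% of these (20.4% of the dusk peaks), and the C/EBP motif in 20.5% and 26.2%. The cAMP response element was in 1.096% of these midday peaks (17 of 1551), 0.389% of all and 0.260% of those with an amplitude below 0.1. Its share in the other phase groups was 0.906% at dawn (5 of 552), 0.228% at dusk and 0% at midnight. All motifs were searched without mismatches on both strands. A match shows that the letters are present, not that a protein was bound there.

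Of 122 peaks within 100 kb of 24 clock genes, 14 were midday peaks (11.5%, all peaks 3.59%), at 7 genes. The same 122 held 11 dusk peaks (all peaks 2.90%), 7 midnight peaks (all peaks 2.42%) and 8 dawn peaks (all peaks 1.21%). Each of these shares was also above that of all peaks, so a raised share was not particular to the midday phase. Nr1d1, the nuclear receptor REV-ERBα that represses Bmal1, had 4 of its 5 peaks in the set. The strongest spanned its start (chr11:98771749-98778246) and held 6930, 9066, 11295, 9176, 6952, 4483, 4647 and 4966 reads from ZT0 to ZT21. ZT3, ZT6 and ZT9 were the 3 highest libraries, with an interval of 11092 to 11502 at ZT6 and 4356 to 4614 at ZT15. The amplitude was 0.66 ± 0.04 and the phase 5.87 ± 0.26 h. A site 7955 bp upstream of the Nr1d1 start (chr11:98782172-98784492) ranged from 3594 reads at ZT6 to 1153 at ZT18, amplitude 0.83 ± 0.06, and a site 9581 bp downstream of it in intron 9 of Thra had 0.38 ± 0.03. The peak at the start and the peak at the last exon of Nr1d1 remained in the set under all normalizations and without each library. The 250 bases before the Nr1d1 start, which the strongest peak covers, are printed to show a promoter that holds a midday peak, and no E-box, single AGGTCA element or DR1 with at most 2 mismatches was found in this window.
Nr1d1 promoter (chr11:98775378-98775627, - strand): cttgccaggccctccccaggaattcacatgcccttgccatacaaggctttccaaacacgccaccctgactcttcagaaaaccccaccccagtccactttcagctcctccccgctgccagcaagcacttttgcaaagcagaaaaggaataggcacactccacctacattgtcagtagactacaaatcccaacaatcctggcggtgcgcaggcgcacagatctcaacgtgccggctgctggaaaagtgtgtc

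The PAR bZIP genes, whose proteins bind D-boxes, had later midday peaks. Dbp had a single peak within reach (chr7:45703881-45708861, intron 1), with 2909, 4008, 5512, 5246, 4501, 3003, 2890 and 2997 reads from ZT0 to ZT21. Its counts stayed high until ZT12, and the phase was 7.78 ± 0.51 h with an amplitude of 0.50 ± 0.07. Hlf had 5 midday peaks among 15, all intronic, with phases of 6.49 to 8.62 h and amplitudes of 0.34 to 0.53. Tef had 1 of 5 with a phase of 8.01 h. Bhlhe41, which encodes the repressor DEC2, had 1 of 3 (chr6:145855468-145856532), from 704 reads at ZT9 to 251 at ZT0, with an amplitude of 0.74 ± 0.09, a phase of 8.76 h and an E-box. Cry2 (1 of 7) and Noct (1 of 12), which encodes the PPARγ partner nocturnin, had strong peaks of small amplitude (0.34 and 0.30) which did not meet the rule under loess.

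**Figure D5:**
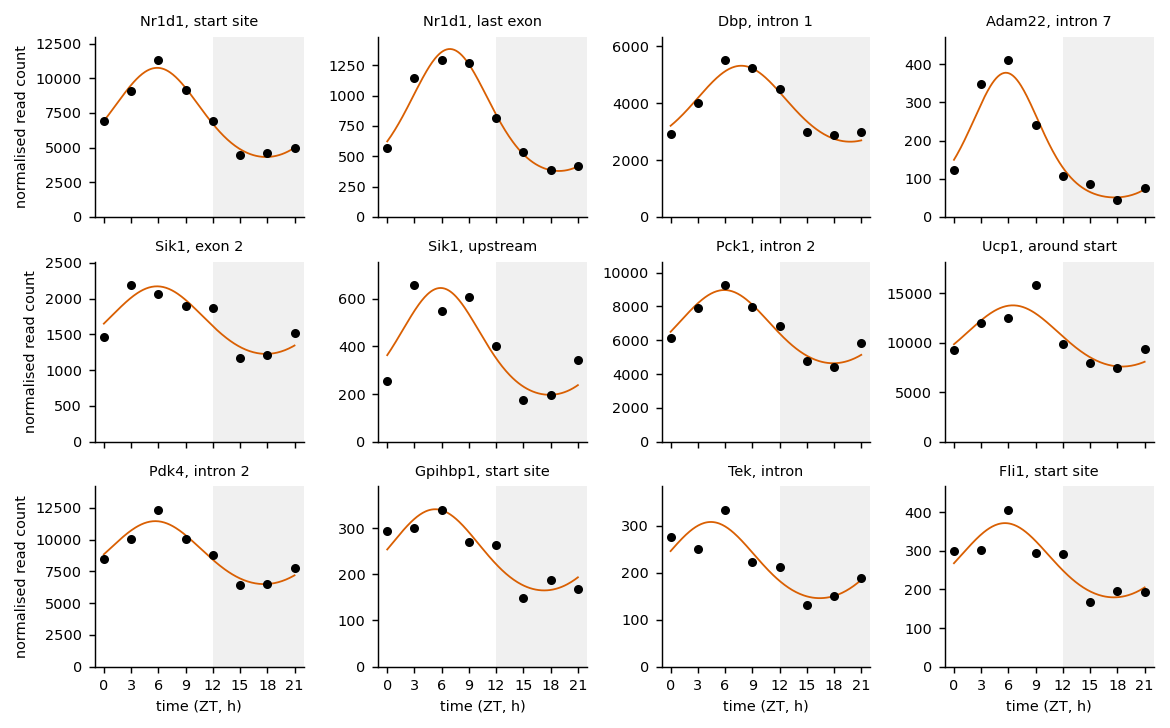
Normalised read counts (y axis, from 0) by time of collection (x axis, ZT in hours, grey is the dark phase) for 12 peaks. Points are the 8 libraries and lines the fitted cosines. The Nr1d1 start site reaches 11295 reads at ZT6 and 4483 at ZT15, and the Tek and Fli1 peaks, at genes of endothelial cells, have the same low library, ZT15.

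The gene with the most midday peaks was Sik1, with 11 of the 18 peaks nearest to it. SIK1 is a kinase induced by cAMP that holds back CREB coactivators. The stretch chr17:31842153-31941347 was bounded by midday peaks, so its share is raised by the way it was drawn. In it, 9 of 11 peaks were midday peaks, and the other 2 had a phase in the same window. The strongest, 64637 bp downstream of the start (chr17:31787464-31794871), held 6359, 8621, 8744, 8180, 6500, 5107, 4630 and 5623 reads from ZT0 to ZT21. The peak at the gene itself (chr17:31852772-31857249, exon 2) ranged from 2187 at ZT3 to 1163 at ZT15. A site 6354 bp upstream (chr17:31861467-31862849) had the largest amplitude of the 11, 0.86 ± 0.21, with 255, 658, 548, 609, 401, 174, 197 and 341 reads. Values at ZT3, ZT6 and ZT9 were close to each other at most of these sites, and ZT6 was the highest library in 3 of the 11. Thus Sik1 differed in shape from the set as a whole, in which ZT6 was highest in 69.1%. Phases lay between 5.63 and 7.22 h.

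Midday peaks lay near each other. Another midday peak was found within 50 kb of 821 of the 1872 (43.9%), compared with 33.6% of dusk, 34.1% of dawn and 23.6% of midnight peaks among their own kind. The sets differ in size and position, and no test was made. Groups were midday peaks joined by gaps of at most 50 kb, and each stretch runs from the first to the last of them. The shares within these stretches are therefore raised by the way they were drawn. Groups of 6 or more numbered 9. They included 7 of 9 peaks in a stretch near Klf10 and Mir6951 (chr15:38373154-38434206), 6 of 12 around the kinase gene Pim3 (chr15:88836084-88893291), all 6 highest at ZT6, 8 of 24 around Pim1 and Fgd2 (chr17:29383124-29513700) and 8 of 15 between Pomgnt2 and Snrk (chr9:122018047-122071669). Around the nuclear receptor gene Nr4a1, which responds to cAMP, 5 of 7 were midday peaks (chr15:101245438-101288425), with amplitudes of 0.32 to 0.57, each highest at ZT6. The neighbours outside the set leaned the same way. Of 1087 such peaks nearest to a midday peak and within 10 kb, 616 had a fitted phase from 3 to below 9 h (56.7%), against 27.0% of all peaks outside the set. A lean towards the phase of the set was also seen around midnight peaks, of whose 757 such neighbours 47.8% had a phase from 15 to below 21 h (29.5% of all peaks outside the midday set).

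Of 154 peaks of the thermogenesis list, 16 were midday peaks (10.4%, all peaks 3.59%), at 7 of 25 genes. The strongest peak at Ucp1, the uncoupling protein that releases the mitochondrial proton gradient as heat, is 12049 bp wide (chr8:83282288-83294336), with its centre 2036 bp before the start and its end within the gene. It held 9251, 11956, 12534, 15821, 9863, 7988, 7433 and 9328 reads from ZT0 to ZT21. ZT9 stood apart from its neighbours and was the highest library, as it was for only 232 midday peaks. Amplitude was 0.43 ± 0.09 and phase 6.49 ± 0.83 h. A second Ucp1 peak, around its last exon (chr8:83294557-83301535), was highest at ZT3 with 2227 reads, lowest at ZT15 with 1100, and earlier, with a phase of 4.08 ± 0.76 h.

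Coactivator and signalling genes made up most of the rest of that list. Ppargc1a, whose product PGC-1α coactivates PPARγ, had 4 of 16 peaks in the set. The one at its start (chr5:51567318-51569187) held 408, 880, 1093, 783, 593, 401, 445 and 586 reads, amplitude 0.60 ± 0.17, and contained an E-box. Ppargc1b had 2 of 6, and Adcy3, an adenylate cyclase that makes cAMP, had 4 of 10 within its gene body, with phases from 3.20 to 5.82 h. Irf4, a transcription factor partner of PGC-1α, had 2 of 12, Kcnk3 1 of 2 and Prkar2b, a regulatory subunit of protein kinase A, 1 of 23. Under cyclic loess this list had 7 midday peaks, and the strongest Ucp1 peak and the strongest Ppargc1b peak were not among them. With library totals alone it had 10. Of 7 brown adipocyte markers, which overlap this list, 7 of 39 peaks were midday peaks (17.9%, all peaks 3.59%). The 7 lay at only 3 of the brown adipocyte markers, 4 at Ppargc1a, 2 at Ucp1 and 1 at Elovl3. Of 6 general adipocyte markers 0 of 41 peaks were midday peaks, a small number of peaks beside the 3.59% of all. A phase from 3 to below 9 h was fitted for 28 of the 39 (71.8%) and 14 of the 41 (34.1%, all peaks 29.6%).

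Among genes of lipoprotein lipolysis and fatty acid uptake, 14 of 119 peaks were in the set (11.8%, all peaks 3.59%), 13 under cyclic loess and 5 with library totals. All 3 peaks of Gpihbp1, the protein that holds lipoprotein lipase on the capillary wall, were midday peaks. The site at its start (chr15:75596148-75597017) held 295, 301, 340, 270, 263, 149, 188 and 168 reads from ZT0 to ZT21, amplitude 0.52 ± 0.11. Every library from ZT0 to ZT12 was above every library from ZT15 to ZT21. Scarb1, a lipoprotein receptor, had 5 of 20, with amplitudes of 0.30 to 0.34 and the strongest at 3921 reads at ZT6. Angptl4, an inhibitor of lipoprotein lipase, had 1 of 2, a weak site 7341 bp upstream with a mean of 207 reads. Lpl had 4 of 20 and Slc27a2, a fatty acid transporter, 1 of 3.

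Of 135 peaks of triglyceride synthesis, 11 were midday peaks (8.15%, all peaks 3.59%), 6 under cyclic loess and 4 with library totals. Pck1, an enzyme of the route from pyruvate to glycerol 3-phosphate in fat, had 3 of 4, and the peak over its start (chr2:173150892-173156399) held 6159, 7892, 9260, 7942, 6854, 4779, 4400 and 5830 reads from ZT0 to ZT21. It met the rule under every normalization and without each library, with an amplitude of 0.48 ± 0.06 and an interval of 9076 to 9448 at ZT6 and 4270 to 4535 at ZT18. Gpd1, which reduces dihydroxyacetone phosphate to glycerol 3-phosphate, had 1 of 2 (12047 reads at ZT6, 7040 at ZT18). Aqp7, the glycerol channel, had 2 of 8, and Gpat4, Dgat2, Lpin1, Gk and Acsl3 had 1 each. Of the 66 peaks of the lipid droplet and intracellular lipolysis list 0 were in the set (1 under cyclic loess), a small number of peaks beside the 3.59% of all, and 33 had a fitted phase from 3 to below 9 h.

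Fatty acid oxidation genes had 5 of 99 peaks in the set (5.05%, all peaks 3.59%), or 3 under cyclic loess and 3 with library totals, and 63 of the 99 had a phase from 3 to below 9 h (all peaks 29.6%), while the median amplitude of the 99 was 0.18. Pdk4, the kinase that shuts off pyruvate dehydrogenase, had 2 of 8. The peak over its gene (chr6:5487743-5499871) held 8486, 10070, 12344, 10057, 8791, 6458, 6529 and 7799 reads, amplitude 0.41 ± 0.05. Hadh had 2 of 8 and Ehhadh, a peroxisomal enzyme, 1 of 7. De novo lipogenesis and elongation had 6 of 126 (4.76%, near the 3.59% of all peaks, and 2 peaks with library totals), at Acacb (2), Acaca, Scd1, Elovl3 and Mlxipl, all with amplitudes of 0.31 to 0.40.

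Glucose uptake and insulin signalling genes had 15 of 237 (6.33%, all peaks 3.59%). Irs2, an adaptor of the insulin receptor, had 2 of 8, of which the peak 90118 bp upstream ranged from 1793 reads at ZT6 to 807 at ZT18. Pfkfb3, an activator of glycolysis, had 4 of 18 with amplitudes up to 0.62. Extracellular matrix genes had 10 of 187 (5.35%, near the share of all peaks), among them Col4a1 (3), Lamb1 (3) and a Timp3 peak of amplitude 0.64 ± 0.08 with a phase of 8.28 h. The list of adipocyte transcription factors and nuclear receptors was at the other end, with 4 of 299 (1.34%), below the 3.59% of all peaks, at Klf9, Ppara, Klf15 and Klf4, and 2 peaks under cyclic loess. Adipokines and secreted factors had 2 of 94 (2.13%), at Cfd and Igf1, and 0 under cyclic loess or with library totals. Over the 11 lists, 96 of 1629 peaks were midday peaks (5.89%).

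Peaks at endothelial genes, most of them weak, were midday peaks more often than peaks in general. Of 20 peaks at 6 endothelial marker genes (Emcn had none), 6 were midday peaks (30%, all peaks 3.59%), at Kdr (3 within 100 kb), Tek, Tie1 and Cdh5, and 16 had a phase from 3 to below 9 h. KDR, TEK and TIE1 are receptors of vascular growth factors, and CDH5 joins endothelial cells. A peak in intron 1 of Tek (chr4:94746261-94746974) held 275, 251, 334, 223, 212, 132, 150 and 188 reads from ZT0 to ZT21, amplitude 0.54 ± 0.10. Summed over the 20 peaks, the level was 1.24 times its mean at ZT6 and 0.80 times at ZT15, with 1.09 at ZT0. The list's strongest peak, in Pecam1, had a mean of 1342 reads and an amplitude of 0.25, below the limit. The strongest peak of Cdh5 (chr8:104008953-104010917, mean 509 reads) met the limits with a dawn phase. It was highest at ZT0 and lowest at ZT9, with an amplitude of 0.48 and a phase of 22.06 h. The number of midday peaks varied from 3 without ZT15 to 11 without ZT12 or without ZT18.

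A wider list of 42 endothelial genes, written after these values were seen, was counted as well. Of its 118 peaks, 30 were midday peaks (25.4%, all peaks 3.59%), at 19 genes, and 3 met the limits with another phase. The 30 include the 6 at the marker genes above and the 3 of Gpihbp1, so this count is not separate from those. Fli1, Erg, Sox7 and Lyl1 (transcription factors of the endothelial and blood lineages), Egfl7, Eng, Robo4, Ptprb, Ushbp1 and Apold1 were among the 19. The median amplitude of all 118 peaks was 0.27, below the limit, and a peak in intron 1 of Nos3 (mean 3528 reads) had 0.09. At the start of Fli1 (chr9:32541339-32541998) the counts were 300, 304, 407, 294, 291, 169, 195 and 192 from ZT0 to ZT21, amplitude 0.53 ± 0.10. Of the 30 peaks, 28 were highest at ZT6 and 28 lowest at ZT15 (93.3% each), compared with 68.6% and 59.1% of the 948 midday peaks of 100 to below 300 reads. Their amplitudes were 0.31 to 0.59 and their median phase 5.23 h, and 9 lay within 1 kb of a start site. The count was 27 with library totals, 34 under cyclic loess and 23 without ZT6. In bulk tissue, more endothelial nuclei in a pool and more binding per nucleus cannot be told apart. This touches Gpihbp1, a gene of capillary endothelium and of this list. The summed level of the brown adipocyte markers was also highest at ZT6, at 1.19 times its mean, and lowest at ZT18, at 0.84 times. That of the general adipocyte markers, which had no midday peak, was 1.17 times its mean at ZT6 and 0.86 times at ZT18. Sums weigh strong peaks most. The median over the 20 endothelial marker peaks was 1.33 times the mean at ZT6 and 0.68 times at ZT15. At these times it was 1.14 and 0.93 for the brown adipocyte peaks. For the general adipocyte peaks it was 1.07 and 1.06, with its highest value, 1.07, at ZT12. The part of cell composition in the endothelial values was not tested.

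Of the other genes with the most midday peaks, Cdh13, which encodes T-cadherin, a receptor for adiponectin, had 5 of 11 peaks, all weak (112 to 326 reads) and of amplitude 0.47 to 0.63, of which 4 met the rule under all normalizations and without each library. Its peak in intron 1 (chr8:118393636-118394798, with 471 reads at ZT6 and 200.6 at ZT15) had a phase of 5.07 ± 0.42 h. Pde7b, a phosphodiesterase that degrades cAMP, had 6 of 22, the strongest with 2488 reads at ZT6 and 1330 at ZT15. The stretch nearest to the non-coding gene A630001O12Rik had 6 of 22, that nearest to Actl7b 6 of 20, and 5 of 30 nearest to 2010106C02Rik lay in introns of Prkce, which encodes protein kinase C epsilon.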

How the data were processed

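PPARγ ChIP-sequencing libraries of iBAT, 1 per time point, were analysed from the deposited counts. The authors mapped reads to mm10 (GRCm38) with BWA-MEM 0.7.17, called peaks per library with MACS2 2.1.2, retained those found in 6 or more libraries at an FDR below 0.05, and obtained counts over them from HTSeq-count 1.99.2, per the methods and the submitters' processing notes. These raw counts are not normalized, and how duplicate reads were treated is not given in the sources used here. Wide merged peaks and repeated fragments could change both counts and centres. The input library of ZT12 was not used here, as no column was matched to it.

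Counts were divided by size factors and log2 values fitted by least squares with cosine and sine terms of 24 h, leaving 5 residual degrees of freedom (Python 3.11.15, numpy 2.4.6, pandas 2.3.3). The SE of amplitude and phase comes from the scatter around the cosine. No count test was used, because the rule had used every library. The procedure was tested on simulated data. Alternative factors came from edgeR 4.0.16 and cyclic loess from limma 3.58.1 (R 4.3.3, pseudocount 0.5). Each peak centre was given the closest start site among RefSeq curated transcripts (GRCm38), and motifs were read with pysam 0.24.0. Depth was 29572225 to 34264812 reads in peaks. Wilson intervals (scipy 1.17.1) are relative to the library total.

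Named were the 10 midday peaks of largest amplitude, the 8 strongest, the strongest midday peak of up to 5 genes per list, the peaks of the 6 genes with most midday peaks and those next to each limit. Other peaks of the same genes and groups, and the endothelial peaks other than the markers, were chosen after their values were seen. The members and lists were chosen with earlier results of these data known. Gene lists took peaks within 100 kb of a start site.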

Additional observations from a re-analysis of the deposited data

How the results depend on the processing

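The number of midday peaks was 1872 with size factors, and 1909 with TMM, 1797 with upper-quartile and 1847 with cyclic loess factors. Division by library totals alone gave 1130 peaks, all among the 1872, with a median strength of 260.8 reads, a median width of 852 bp, a share highest at ZT6 of 66.5%, a share with another midday peak within 50 kb of 35.9%, and 55 peaks at the gene lists. With cyclic loess the median amplitude was 0.42, the median ratio of highest to lowest library 2.03, the median strength 226.0 reads, the width 795 bp and the share with a neighbour 40.1%. Leaving out each library in turn gave 1523 (without ZT6) to 2781 (without ZT21) peaks, and 857 of the 1872 (45.8%) were found in all 8 of these, 1078 (57.6%) under the 4 other normalizations, and 752 (40.2%) in both. A minimum of 200 reads left 1241 peaks, an amplitude of 0.5 left 399 and an R2 of 0.8 left 1014. Within 5 kb of a start site were 17.1% (all peaks 30.5%), and among peaks of 250 to 500 reads 3.56% lay within 1 kb. The DR1 share was 3.42% with 1 mismatch (all peaks 2.12%), 10.8% in the central 200 bases (6.03%) and 33.3% in the whole peak (25.3%). With a distance of 20 kb, 31.0% had a neighbour. With start sites within 10 kb, 31 of 617 list peaks were midday peaks, beside 552 of all 21423 peaks within that distance of a start site. Of the 98 named peaks, 67 met the rule without ZT6, 58 with library totals, 61 under loess and 34 under every normalization and without each library. No paired analysis was possible because each time point has 1 library and no numbers are shared between groups.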

Other observations

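The Nr4a1 peak over its start (chr15:101265400-101270493, intron 1), chosen after the values were seen, held, in order from ZT0 to ZT21, 1711, 2614, 2656, 2494, 2207, 1324, 1550 and 1924 reads.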
